A study of Mus musculus with 6 samples.

Results

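Heat shock proteins and DnaJ co-chaperones form much of the protein-folding machinery of the cell, and 66 mouse genes of these families were followed in the colon of stressed and resting mice. The genes were chosen by symbol from 43432 gene identifiers: protein-coding genes of the Hspa, Hspb, Hspd, Hspe, Hsph and Hsp90 families and of the Dnaja, Dnajb and Dnajc families. The chaperones of the endoplasmic reticulum Hspa5, Hsp90b1, Dnajb9, Dnajb11 and Dnajc3, the binding proteins Hspbap1 and Hspbp1, and pseudogenes were left out. Of 83 symbols that matched, 7 were named exceptions and 10 were not protein coding. No identifier matched the symbol Hspa14, so this gene of the Hspa family was not followed. The 66 genes are 24 Hsp genes and 42 Dnaj genes, and 61 of them (22 Hsp and 39 Dnaj) had enough counts to be tested, among 16119 tested genes in all.

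The stressed group was 3 wild-type mice (10, 11 and 13) whose colon was dissected directly after the last of 3 episodes of restraint, each of 30 min. The resting group was 3 wild-type mice (15, 17 and 19), placed by their treatment label, although the restraint protocol is written on their records too. Restraint holds a rodent in a tight enclosure and is a standard psychological stressor. The sources used here do not give sex, age and housing, or any handling of the resting mice. Each mouse gave 1 poly(A) RNA library of whole colon tissue, and values below are listed in the order of mice given here.

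Heat shock proteins hold unfolded polypeptides and help them to fold. Hsp70 proteins bind short hydrophobic stretches in a cycle driven by ATP. DnaJ proteins, also called Hsp40, bring substrates to Hsp70 and start its ATP hydrolysis, while Hsp110 proteins release the spent nucleotide. Hsp90 acts later, on kinases, steroid receptors and other nearly folded clients, small heat shock proteins keep unfolded proteins from clumping without ATP, and the Hspd1 and Hspe1 chaperonin folds proteins in mitochondria. When unfolded proteins accumulate, heat shock factor 1 (Hsf1) forms trimers that bind heat shock elements, which are inverted repeats of the unit GAA, and switches on a subset of these genes within minutes. In cultured cells and in heated animals, Hspa1a, Hspa1b, Hsph1, Dnajb1 and Hspb1 are among the strongest responders. The glucocorticoid receptor, which binds the stress hormone corticosterone in mice, is itself a client of Hsp90 and Hsp70.

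The DNA before 4 of these genes is shown because it holds the letters of heat shock elements, through which genes of this kind are known to respond to heat, and because their RNA is compared below. The windows come from RefSeq on build GRCm38.p6 and run from 250 bases before the annotated start to 50 bases after it, 5′ to 3′ on the strand of the gene. They are chr5:149636287-149636586 on the minus strand for Hsph1, chr5:29735648-29735947 on the plus strand for Dnajb6, chr1:55087898-55088197 on the plus strand for Hspe1 and chr17:34959189-34959488 on the minus strand for Hspa1b. Capitals mark each match to the facing pairs GAANNTTC and TTCNNGAA.
Hsph1: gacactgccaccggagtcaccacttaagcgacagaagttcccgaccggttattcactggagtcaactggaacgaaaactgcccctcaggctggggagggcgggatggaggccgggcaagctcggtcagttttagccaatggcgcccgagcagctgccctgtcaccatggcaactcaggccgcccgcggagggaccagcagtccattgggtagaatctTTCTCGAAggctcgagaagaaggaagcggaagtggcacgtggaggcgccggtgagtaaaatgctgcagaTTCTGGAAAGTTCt
Dnajb6: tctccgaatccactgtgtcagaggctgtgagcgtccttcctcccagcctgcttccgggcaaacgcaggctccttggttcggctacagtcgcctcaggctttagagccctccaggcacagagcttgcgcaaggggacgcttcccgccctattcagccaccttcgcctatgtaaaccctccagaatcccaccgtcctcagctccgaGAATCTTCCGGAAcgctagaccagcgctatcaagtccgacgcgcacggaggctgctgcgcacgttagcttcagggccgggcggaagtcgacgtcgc
Hspe1: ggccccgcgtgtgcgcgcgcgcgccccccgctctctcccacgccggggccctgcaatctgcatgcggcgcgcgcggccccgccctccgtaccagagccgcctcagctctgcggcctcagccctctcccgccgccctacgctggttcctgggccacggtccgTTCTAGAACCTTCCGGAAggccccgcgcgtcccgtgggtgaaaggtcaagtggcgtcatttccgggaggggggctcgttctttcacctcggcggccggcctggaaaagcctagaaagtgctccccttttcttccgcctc
Hspa1b: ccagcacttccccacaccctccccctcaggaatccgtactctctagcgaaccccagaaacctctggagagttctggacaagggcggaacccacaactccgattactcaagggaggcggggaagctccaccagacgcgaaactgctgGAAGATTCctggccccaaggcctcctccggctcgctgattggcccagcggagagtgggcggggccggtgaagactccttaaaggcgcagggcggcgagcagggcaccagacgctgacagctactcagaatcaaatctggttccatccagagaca

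Hsph1, Dnajb6 and Hspe1 hold overlapping pairs, which make at least 3 alternating units in a row. In Hsph1 the pairs begin at positions -33, 37 and 42 relative to the start, so the run of 3 units lies downstream of this annotated start. In Dnajb6 they begin at -46 and -41, and in Hspe1 at -89, -84 and -79. Hspe1 and Hspd1 lie head to head, and their windows share 285 bases and therefore the same run. Hspa1b has a single pair at -104 in its window, and the window of its near-identical neighbour Hspa1a differs from it at 4 of 300 bases and has the same pair.

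Of the 66 genes, 52 had a promoter window in the RefSeq table. Both motifs read the same on either strand, so a match counts for both strands, and the pairs overlap where 3 units follow each other. At least 1 of the pairs was present in 16 of the 52 (30.8%), against 16.97% of 27025 genes with a window. Taken singly, GAANNTTC was in 14 of the 52 and in 9.04% of genes, and TTCNNGAA was in 6 of the 52 and in 9.60% of genes. A run of 3 alternating units was in 4 of the 52 (7.69%), namely Dnajb6, Hspd1, Hspe1 and Hsph1, and in 0.662% of genes. Of 17 genes taken as classic heat-inducible from textbook knowledge, 14 had a window and 10 of these held a pair. Hspa8, Hsp90aa1 and Hsp90ab1 had no window and were not searched. Dnajb1, Dnajb2, Dnajb5 and Hspa4l did not hold these letters in the window. A match describes letters in a window and says nothing about binding in these mice.

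Each of the 6 libraries held between 16425525 and 19819267 counts, and every member's level is given as library-scaled count (CPM, the count relative to the library total, with scaling factors of 0.985 to 1.02) or, where genes are compared with each other, as TPM, which also divides by the exon length of the gene. The constitutive chaperones dominated. Hsp90ab1, the constitutive cytosolic Hsp90, averaged 800 TPM over the 6 mice, and Hspa8, the constitutive cytosolic Hsp70 (Hsc70), averaged 643 TPM. Together these 2 genes made up 38.7% of the summed TPM of the 66 genes. They were followed by Hspd1 at 283 TPM, the mitochondrial Hsp70 Hspa9 at 202 TPM, the DnaJ partner Dnaja2 at 196 TPM, Hspe1 at 165 TPM and the inducible cytosolic Hsp90 Hsp90aa1 at 118 TPM. These 7 genes at or above 100 TPM held 64.6% of the sum, 32 genes lay between 10 and 100 TPM, 21 between 1 and 10 TPM and 6 below 1 TPM.

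The classic stress-inducible Hsp70 genes were low in both groups. Hspa1b averaged 17.9 TPM and Hspa1a 4.74 TPM, so that Hspa8 stood 35.9-fold above Hspa1b on the TPM scale. Hspa1a and Hspa1b share 66.3% and 62.3% of their 50-base stretches with other genes, mostly each other. Reads from such stretches cannot be assigned with certainty and may have been dropped. The separate and summed levels of both genes, and the 35.9-fold gap, are therefore uncertain. The spread between mice of a group was small, with a median coefficient of variation over tested members of 6.63% among stressed mice and 7.63% among resting mice.

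**Figure D1:**
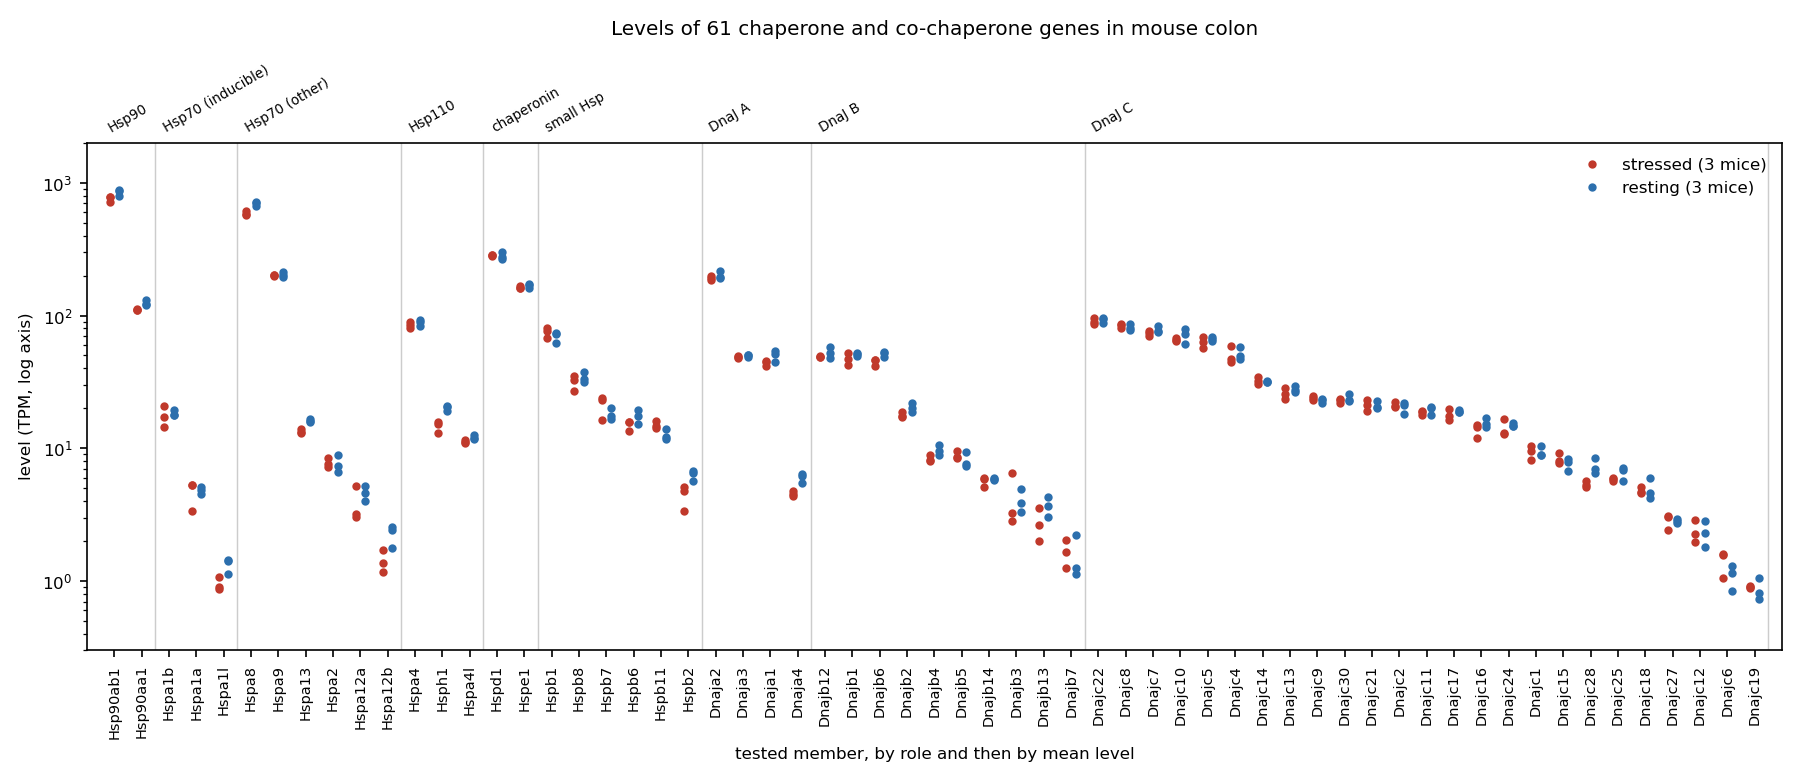
Level of each tested member in each of the 6 mice, in TPM on a log axis, with members ordered by role and then by mean level; each point is 1 mouse, stressed in red to the left and resting in blue to the right. Hsp90ab1 and Hspa8 lie highest, at means of 800 and 643 TPM, and for most members the points of the 2 groups overlap in height.

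The main comparison asks whether repeated restraint moved the RNA of these chaperones in the colon. None of the 61 tested members passed an adjusted p of 0.05 in edgeR's quasi-likelihood test, in a comparison in which 5 of 16119 genes passed (0.031%). The smallest adjusted p among the members was 0.394, for Hsph1. DESeq2 and limma-voom also called none of the 61. At an unadjusted p under 0.05, 6 members were lower in stressed mice (9.84%, against 3.41% of all tested genes) and 1 was higher (1.64%, against 3.52% of all tested genes). The 6 became 2 without stressed mouse 10 (against 2.97% of all tested genes) and 3 without stressed mouse 13 (against 3.4%). The 1 became 0 without stressed mouse 10 (against 3.39%) or without resting mouse 19 (against 4.14%). All 3 stressed mice lay below all 3 resting mice for 9 members (14.8%, against 6.58% of all tested genes) and above them for 3 members (4.92%, against 6.13%).

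Most members differed little. The log2 fold change of stressed over resting mice was within 0.2 of 0 for 49 of 61 members. It was below 0 for 36 members (59%, against 51% of all tested genes), and its median was -0.022, against -0.003 over all tested genes. For 57 of the 61 members the 95% interval of the fold change lay within a 2-fold change in both directions. The exceptions were Hspa12b, Hspa1l and Hspb2, whose lower bounds passed a 2-fold fall, and Dnajb7, whose upper bound passed a 2-fold rise. In bulk tissue, fewer cells of a type and less RNA per cell cannot be told apart, and this holds for every difference below.

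**Figure D2:**
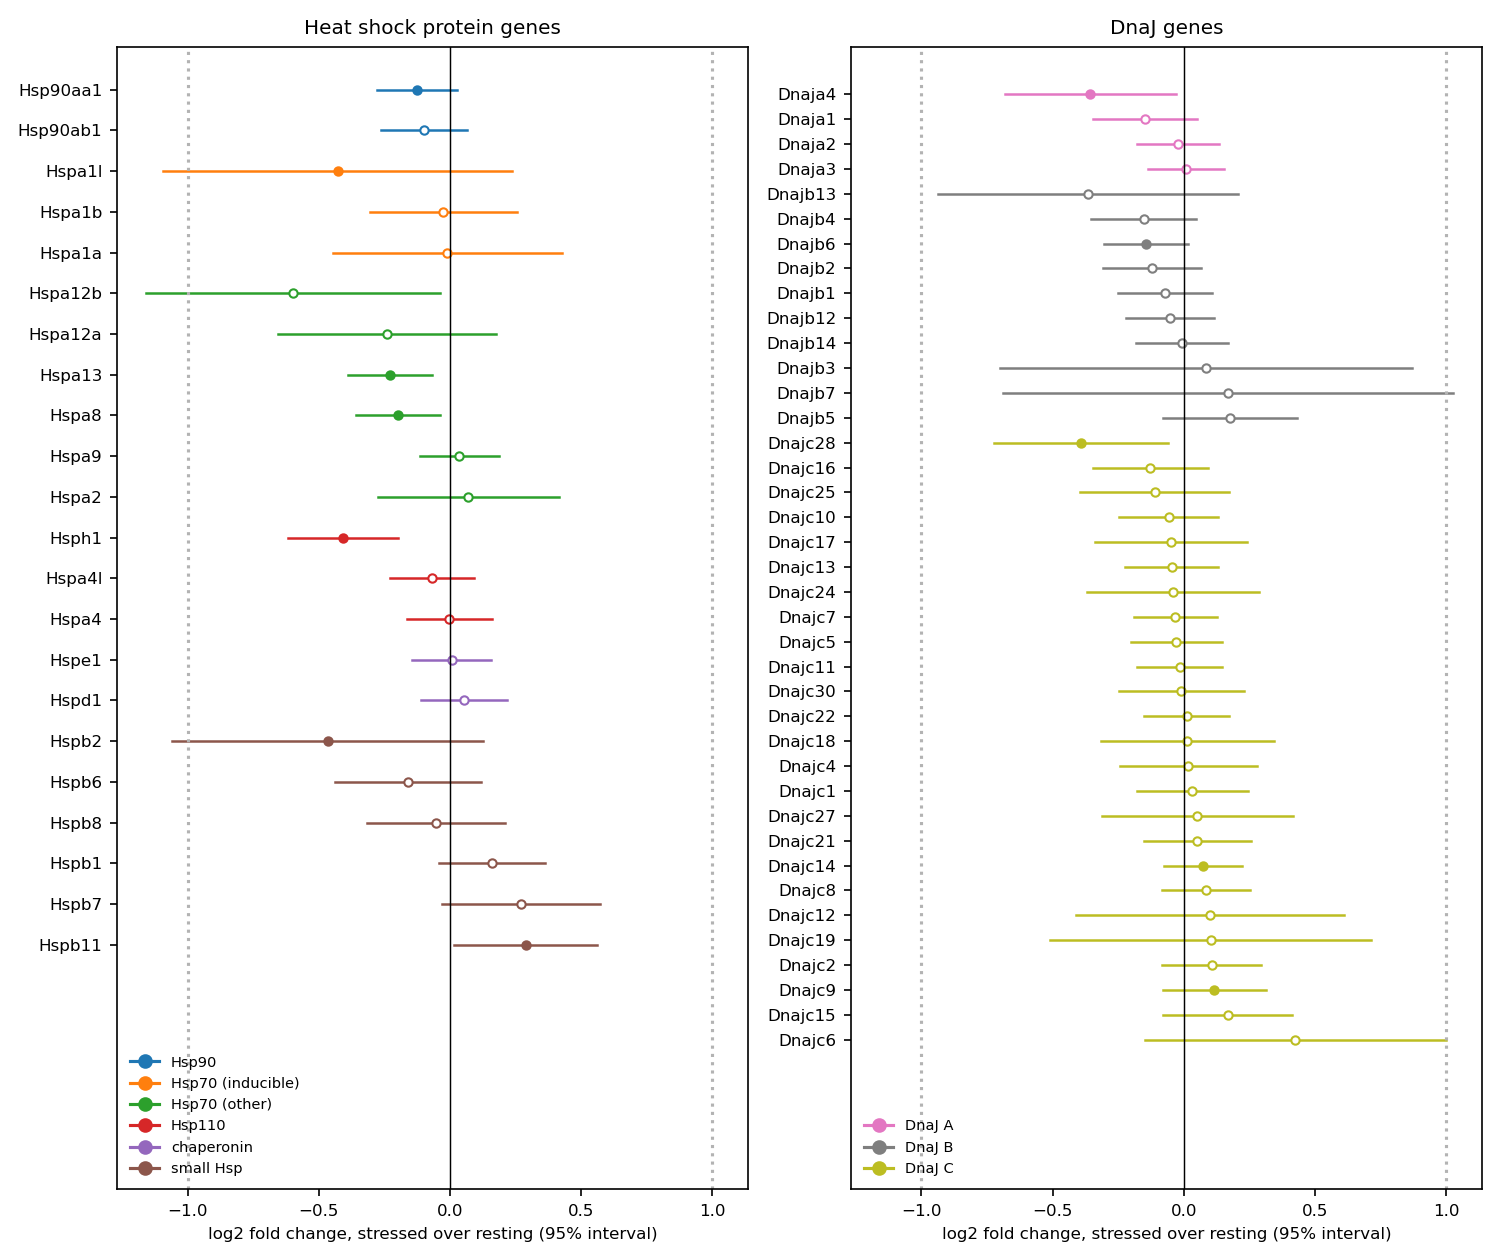
Log2 fold change of stressed over resting mice for each tested member with its 95% interval from edgeR, Hsp genes at left and Dnaj genes at right, coloured by role; filled points mark members whose groups do not overlap, open points the others, and dotted lines mark a 2-fold change either way. The point for Hsph1 is at -0.41 with an interval below 0, and most Dnaj points lie close to 0.

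Hsph1 (ENSMUSG00000029657), which encodes the inducible Hsp110 nucleotide exchange factor Hsp105, had the smallest p of the members. Its RNA was at 39.5, 42.2 and 33.2 CPM in stressed mice, against 51.1, 47.6 and 54.0 CPM in resting mice. The groups did not overlap, with mouse 13 lowest and mouse 19 highest. Stressed mice averaged 38.3 ± 4.61 CPM, against 50.9 ± 3.18 CPM for resting mice (SD, n = 3 each). The log2 fold change was -0.41 ± 0.09 (SE), with a 95% interval of -0.62 to -0.20. The unadjusted p was 0.00138, the 55th smallest of all tested genes, and edgeR's adjusted p of 0.394 did not pass. When no filter on low counts was applied, Hsph1 passed with an adjusted p of 0.0127, while over all the alternatives tried its adjusted p went from 0.0127 to 0.994. The gene lies on chromosome 5 from 149614287 to 149636376 in GENCODE M21, shares no 50-base stretch with another gene, and had between 547 and 976 counts in a library.

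The other Hsp110 genes did not share this difference in size. Hspa4 (Apg-2), the most abundant of them at 86.6 TPM, had 178, 163 and 167 CPM in stressed mice, against 170, 158 and 181 CPM in resting mice, a log2 fold change of -0.002 with an interval of -0.16 to 0.16. Hspa4l (Apg-1), which responds to heat in cultured cells, had 47.0, 49.9 and 45.6 CPM in stressed mice, against 47.7, 48.6 and 52.9 CPM in resting mice, a log2 fold change of -0.07. Both genes overlapped between the groups. Whether Hsph1 differed from them in its change was not tested.

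Hspa8 (ENSMUSG00000015656), the Hsc70 that every cell keeps at a high level, had 887, 965 and 880 CPM in stressed mice, against 1063, 1046 and 1024 CPM in resting mice. Every stressed mouse was below every resting mouse. The means were 911 ± 47.2 and 1044 ± 19.4 CPM for stressed and resting mice (SD over 3 mice), which is a fold of 0.872 with a 95% interval of 0.781 to 0.974. Its unadjusted p was 0.0203 and edgeR's adjusted p 0.626. Of its 50-base stretches, 39.4% also occur in other genes, mostly pseudogene copies, so part of its count may be spread over them.

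Hspa13, a small Hsp70 relative of the endoplasmic reticulum also known as Stch, had 34.1, 32.7 and 31.9 CPM in stressed mice, against 38.0, 37.2 and 40.4 CPM in resting mice. There was no overlap, and the log2 fold change was -0.23 ± 0.07 (SE), with an unadjusted p of 0.00935 and edgeR's adjusted p at 0.559. Hspa13 shares no 50-base stretch with another gene. Hspa12b, a distant Hsp70 relative known from endothelial cells, had 1.79, 2.34 and 1.52 CPM in stressed mice, against 3.05, 3.23 and 2.32 CPM in resting mice. Stressed mouse 11 lay just above resting mouse 19, and the log2 fold change was -0.60 ± 0.25 (SE; unadjusted p = 0.0386, edgeR adjusted p = 0.694). This rested on 25 to 55 counts in a library. Over the 15 alternatives tried, the log2 fold change of Hspa12b went from -0.78 to -0.22, the latter with the mean level of Hoxa genes as a covariate. Other members varied over the alternatives too, such as Dnajb6 from -0.18 to -0.04 and Dnajb4 from -0.20 to -0.006.

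The other members of the constitutive and tissue-restricted Hsp70 group overlapped between the groups. Hspa9, also called mortalin, had 311, 316 and 310 CPM in stressed mice, against 301, 291 and 322 CPM in resting mice. Hspa12a, which is known from brain, had a log2 fold change of -0.24 with an interval of -0.66 to 0.17, and Hspa2, which is needed for sperm development, one of 0.07 with an interval of -0.28 to 0.42. In this group 4 of 6 members were below 0, with a median of -0.21.

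Neither of the Hsp70 genes most strongly tied to heat showed a difference between the groups beyond the spread. Hspa1a had 5.64, 3.71 and 5.53 CPM in stressed mice, against 4.96, 4.64 and 5.36 CPM in resting mice. Hspa1b had 17.2, 14.98 and 20.7 CPM in stressed mice, against 17.2, 17.2 and 19.2 CPM in resting mice. For both genes the resting values lay inside the stressed range, and mouse 11 was lowest of all. Summed over both copies, they were at 22.8, 18.7 and 26.2 CPM in stressed mice, against 22.2, 21.8 and 24.6 CPM in resting mice. The sum does not depend on which copy a read was given to, but it lacks any reads that the counting dropped as shared. The fold of Hspa1a was 0.993 with an interval of 0.733 to 1.35, and that of Hspa1b 0.983 with an interval of 0.809 to 1.19.

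Hspa1l, the third gene of this cluster on chromosome 17 and known from testis, was named after its values were seen. It had 0.769, 0.981 and 0.790 CPM in stressed mice, against 1.196, 1.23 and 0.995 CPM in resting mice. The groups just missed each other, on 13 to 21 counts in a library, and the unadjusted p was 0.182. Of its exons, 71.9% overlap Gm10501 on the opposite strand, so that without a known strand setting reads of either gene could be counted for it.

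Both cytosolic Hsp90 genes were lower in stressed mice on average. Hsp90aa1 had 156, 161 and 153 CPM in stressed mice, against 166, 164 and 183 CPM in resting mice. Its groups did not overlap, though by a narrow margin, and the log2 fold change was -0.12 with an interval of -0.28 to 0.03. Hsp90ab1 had 778, 857 and 824 CPM in stressed mice, against 907, 892 and 837 CPM in resting mice, a log2 fold change of -0.10 with an interval of -0.26 to 0.06. Stressed mouse 11 was above resting mouse 19 for Hsp90ab1. The unadjusted p was 0.100 for Hsp90aa1 and 0.204 for Hsp90ab1, and 47.5% of the 50-base stretches of Hsp90aa1 recur in other genes.

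The mitochondrial chaperonin genes, which are transcribed from a shared promoter, overlapped between the groups. Hspd1 (Hsp60) had 266, 276 and 267 CPM in stressed mice, against 252, 245 and 282 CPM in resting mice. Its partner Hspe1 (Hsp10) had 84.9, 91.3 and 83.3 CPM in stressed mice, against 87.1, 82.6 and 88.6 CPM in resting mice. The log2 fold changes were 0.05, with an interval of -0.11 to 0.22, and 0.007, with an interval of -0.14 to 0.16. Other genes hold 42.1% of the 50-base stretches of Hspd1 and 22.8% of those of Hspe1. Hspe1, Hspd1, Hsph1 and Dnajb6, which all hold a run of 3 units in their windows, had log2 fold changes of 0.007, 0.05, -0.41 and -0.14.

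**Figure D3:**
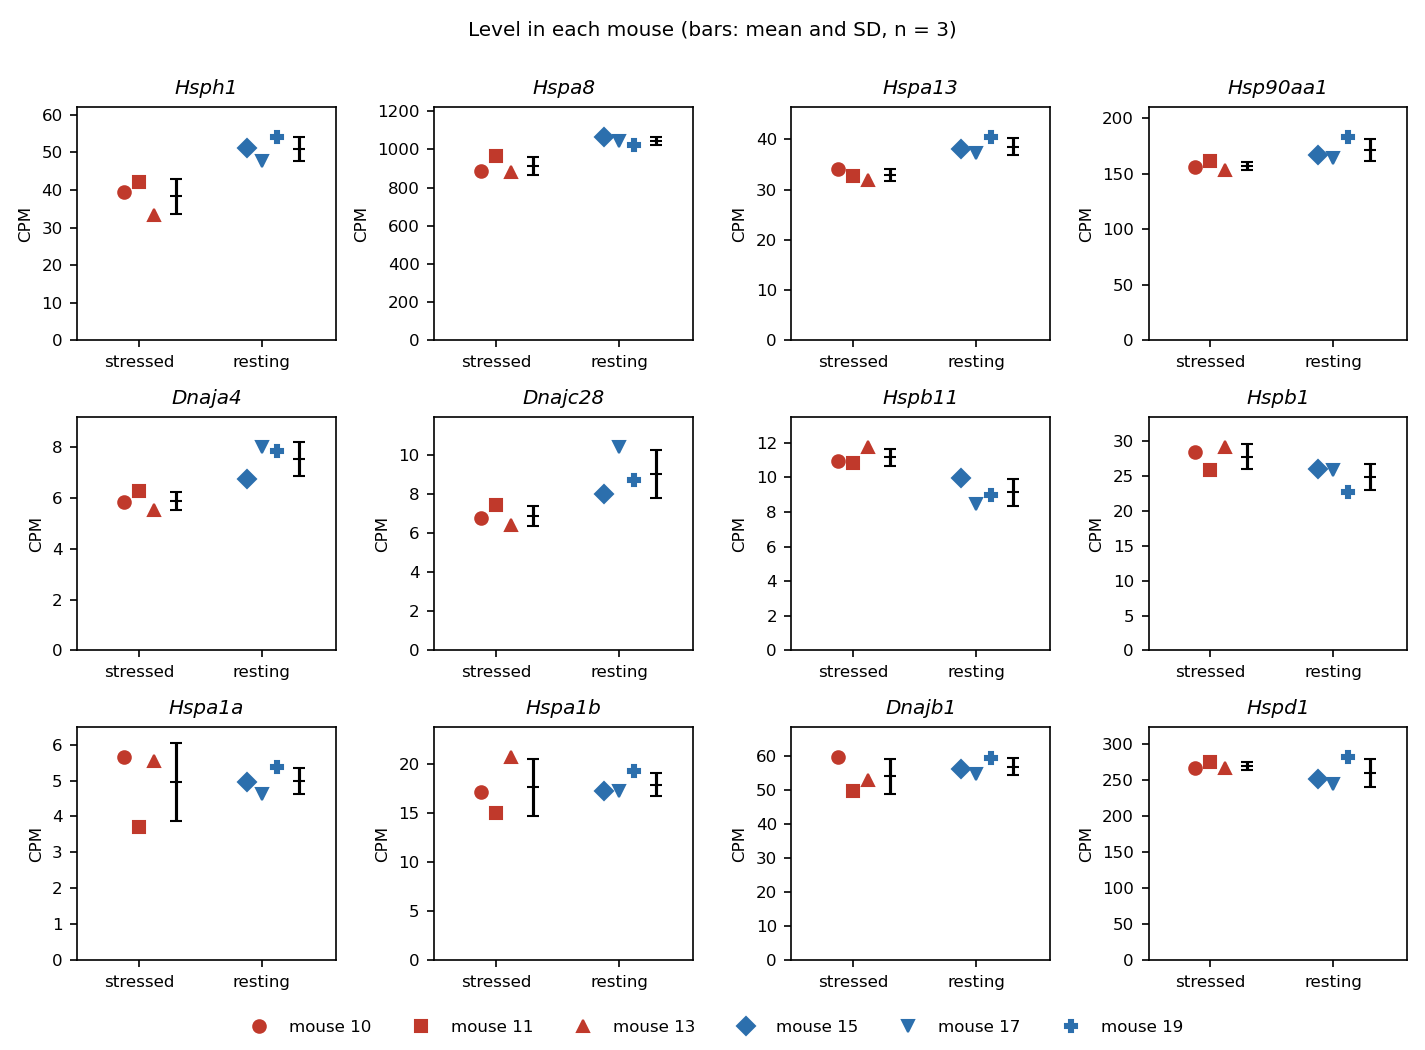
Level in CPM of 12 members in each mouse, with axes from 0; symbols mark the mouse, stressed in red at left and resting in blue at right, and the bars give the mean and SD of 3 mice. Hsph1, Hspa8, Hspa13, Hsp90aa1, Dnaja4 and Dnajc28 have all stressed mice below all resting mice, Hspb11 has all above, and the others overlap.

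The small heat shock proteins went both ways, with 3 of 6 tested members below 0 and 3 above. Hspb11, which despite its name is a subunit (Ift25) of the transport complex of cilia, was the only member higher at an unadjusted p under 0.05. It had 10.9, 10.8 and 11.7 CPM in stressed mice, against 9.98, 8.46 and 8.96 CPM in resting mice. The groups did not overlap, the log2 fold change was 0.29 ± 0.12 (SE), and edgeR's adjusted p was 0.694 (unadjusted p = 0.0391). Hspb1 (Hsp25), the most abundant of the family at 72.1 TPM and a regulator of actin filaments, had 28.5, 25.8 and 29.1 CPM in stressed mice, against 26.1, 25.8 and 22.7 CPM in resting mice. Stressed mouse 11 and resting mice 15 and 17 were alike, and the log2 fold change of Hspb1 was 0.16 with an interval of -0.04 to 0.36. Of the 50-base stretches of Hspb1, 50.1% also occur in other genes, mostly a pseudogene copy.

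Several small heat shock proteins are known from muscle, of which the colon wall holds a thick smooth layer. Hspb7, known from heart and other muscle, had 22.9, 16.8 and 23.3 CPM in stressed mice, against 19.1, 16.03 and 17.03 CPM in resting mice (log2 fold change 0.27, unadjusted p = 0.0726). Hspb6 (Hsp20), which relaxes smooth muscle when phosphorylated, and Hspb8, which works with Bag3 in autophagy, were at -0.16 and -0.05 on the log2 scale and overlapped between groups. Hspb2, which shares its upstream region with Cryab in a head-to-head pair, had 1.54, 1.04 and 1.40 CPM in stressed mice, against 1.61, 1.94 and 1.94 CPM in resting mice. The groups did not overlap, but 30.2% of the exons of Hspb2 overlap Cryab on the opposite strand and its unadjusted p was 0.111.

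The levels of smooth muscle genes themselves did not separate the groups. The 15 smooth muscle markers summed to 4627 to 5391 CPM in stressed mice, against 4164 to 5201 CPM in resting mice, with 12 of the 15 above 0 in log2 fold change and none with groups that did not overlap. With the score of these markers as a covariate, the log2 fold changes of Hspb2, Hspb7 and Hspb8 were -0.44, 0.30 and -0.12. The 12 skeletal muscle markers summed to 22.5 to 26.6 CPM in stressed mice, against 16.9 to 21.1 CPM in resting mice. Without Acta1, whose own groups overlapped, they summed to 12.2 to 15.8 CPM in stressed mice, against 12.5 to 13.6 CPM in resting mice, which overlapped. Of these markers 4 could be tested and 3 were above 0, while Myh1, Myh4 and Tnnc2 were at 0 in every library. The 12 genes of motile cilia and sperm summed to 6.14 to 8.26 CPM in stressed mice, against 5.31 to 7.83 CPM in resting mice, with 3 of 4 tested above 0 and Tnp1, Tnp2 and Odf1 at 0. The part of the skeletal muscle, cilia and sperm genes in the values of the members was not tested.

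DnaJ proteins of class A have the full set of domains of bacterial DnaJ and hand unfolded proteins to Hsp70. Dnaja4 had 5.85, 6.27 and 5.53 CPM in stressed mice, against 6.76, 7.99 and 7.85 CPM in resting mice. The groups did not overlap, and the log2 fold change was -0.36 ± 0.15 (SE; unadjusted p = 0.0347, edgeR adjusted p = 0.671). Of its exons, 44.1% overlap the opposite-strand gene Wdr61, so part of its counts could belong to that gene if the counting ignored strand. Dnaja1, the most heat-responsive of the class in many cells, had 139, 144 and 126 CPM in stressed mice, against 153, 134 and 166 CPM in resting mice, a log2 fold change of -0.15 with an interval of -0.35 to 0.05. Other genes share 20.6% of the 50-base stretches of Dnaja1. Dnaja2 and the mitochondrial Dnaja3 (Tid1) were at -0.02 and 0.008 on the log2 scale.

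Class B proteins share the J domain and a glycine-rich stretch. Dnajb1, the principal stress-induced Hsp40, had 59.6, 49.6 and 53.0 CPM in stressed mice, against 56.3, 54.7 and 59.5 CPM in resting mice. Stressed mouse 10 was the highest of all and stressed mouse 11 the lowest, and the log2 fold change was -0.07 with an interval of -0.25 to 0.11. Dnajb6, which keeps aggregation-prone proteins soluble, had 101, 103 and 89.99 CPM in stressed mice, against 111, 109 and 104 CPM in resting mice. All stressed mice were below all resting mice for Dnajb6, with mice 11 and 19 closest, and with a log2 fold change of -0.14 and an unadjusted p of 0.0752.

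The remaining class B genes overlapped between the groups. Dnajb4 was at -0.15, Dnajb2, which handles ubiquitinated clients, at -0.12, and Dnajb12 and Dnajb14, which sit in the membrane of the endoplasmic reticulum and serve protein degradation, at -0.05 and -0.006 on the log2 scale. Dnajb5 was at 0.18 with 20.3, 18.5 and 18.05 CPM in stressed mice, against 15.5, 19.3 and 15.5 CPM in resting mice. The low-count genes Dnajb3, Dnajb7 and Dnajb13, which are known from testis or motile cilia, were at 0.08, 0.17 and -0.36, each with an interval that reaches past a 1.5-fold change in at least 1 direction. Of the exons of Dnajb13, 11.2% overlap Ucp2 on the opposite strand. Ucp2 averaged 11290 counts in a library, against 38 to 67 for Dnajb13, whose counts are uncertain if the counting ignored strand. Over the class, 7 of 10 tested members were below 0 and the median was -0.06.

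Class C proteins have a J domain in otherwise unrelated proteins, each tied to a particular task. Of 25 tested members, 11 were below 0 and 14 above, with a median of 0.01, and 23 lay within 0.2 of 0 on the log2 scale. Dnajc28, whose function is little known, had 6.77, 7.46 and 6.44 CPM in stressed mice, against 8.01, 10.4 and 8.74 CPM in resting mice. Its groups did not overlap, with a log2 fold change of -0.39 ± 0.15 (SE; unadjusted p = 0.0243, edgeR adjusted p = 0.646). Dnajc6 (auxilin), which strips clathrin from vesicles in neurons, had 3.33, 3.49 and 2.19 CPM in stressed mice, against 2.33, 2.64 and 1.77 CPM in resting mice, so the groups overlapped (log2 fold change 0.42, unadjusted p = 0.129). The 12 enteric neuron markers summed to 130 to 144 CPM in stressed mice, against 109 to 131 CPM in resting mice. Of these markers, 10 of 12 were above 0 in log2 fold change. In 5 of 12 all stressed mice lay above all resting mice, against 6.13% of all tested genes. The part of the neuron markers in the value of Dnajc6 was not tested.

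The class C member Dnajc9, a co-chaperone of histones, had 20.6, 20.4 and 20.8 CPM in stressed mice, against 19.4, 18.03 and 19.6 CPM in resting mice. Dnajc14, which sits in the membrane of the endoplasmic reticulum, had 81.0, 73.8 and 74.3 CPM in stressed mice, against 71.2, 73.0 and 73.7 CPM in resting mice. For both genes all stressed mice were above all resting mice, by small margins, with log2 fold changes of 0.12 and 0.07 and unadjusted p-values of 0.213 and 0.303. Dnajc2, which acts at the ribosome with Hsp70, was at 0.11, the splicing-associated Dnajc8 at 0.08, and Dnajc21, which serves the assembly of the large ribosomal subunit, at 0.05 on the log2 scale.

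Class C members of membranes and mitochondria were likewise close to 0. Dnajc22, the most abundant of the class at 91.7 TPM, was at 0.01, the cysteine string protein Dnajc5 at -0.03, the endosomal Dnajc13 at -0.05, and the disulfide reductase of the endoplasmic reticulum Dnajc10 at -0.06 on the log2 scale. The mitochondrial import factor Dnajc15 was at 0.17, with 18.1, 19.4 and 21.1 CPM in stressed mice, against 18.8, 15.3 and 18.1 CPM in resting mice. Dnajc19, another import factor, was at 0.10 on only 19 to 26 counts in a library. Dnajc7, which links Hsp70 to Hsp90, was at -0.03. The others, Dnajc1, Dnajc4, Dnajc11, Dnajc12, Dnajc16, Dnajc17, Dnajc18, Dnajc24, Dnajc25, Dnajc27 and Dnajc30, lay between -0.13 and 0.10 and overlapped between the groups.

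The 5 members that could not be tested were near absent. Dnajb8, Dnajc5g and Hspb3 had 0 counts in all 6 libraries, which allows levels of up to 0.154 to 0.182 CPM (3 counts in a library; counting error only). Dnajc5b had 3 counts in all, each of them in resting mouse 17. Hspb9 had 3, 7 and 1 counts in stressed mice, against 2, 0 and 2 in resting mice. All of these genes are known from tissues other than the colon, such as testis or muscle.

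The genes taken as classic heat-inducible were Hspa1a, Hspa1b, Hsph1, Hspa8, Hsp90aa1, Hsp90ab1, Hspa4l, Hspb1, Hspb8, Hspd1, Hspe1, Dnajb1, Dnaja1, Dnaja4, Dnajb4, Dnajb5 and Dnajb2. Of these 17 genes, 13 were below 0 and 4 above in log2 fold change, where 51% of all tested genes were below 0, and their median was -0.07. All stressed mice lay below all resting mice for 4 of the 17, Hsph1, Hspa8, Hsp90aa1 and Dnaja4, and above them for none, against 6.58% and 6.13% of all tested genes. Hspa8 and Hsp90ab1 are mainly constitutive, and of the 15 genes without them 11 were below 0, with a median of -0.07, and 3 had all stressed mice below all resting mice. The members above 0 were Dnajb5, Hspb1, Hspd1 and Hspe1. For all 17 the 95% interval left out a 1.5-fold rise, with the highest upper bound at 1.35-fold, for Dnajb5. For 15 of them the interval also left out a 1.5-fold fall, the exceptions being Hsph1 and Dnaja4. These intervals concern RNA in whole colon at a single time and say nothing of other times or of protein.

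**Figure D4:**
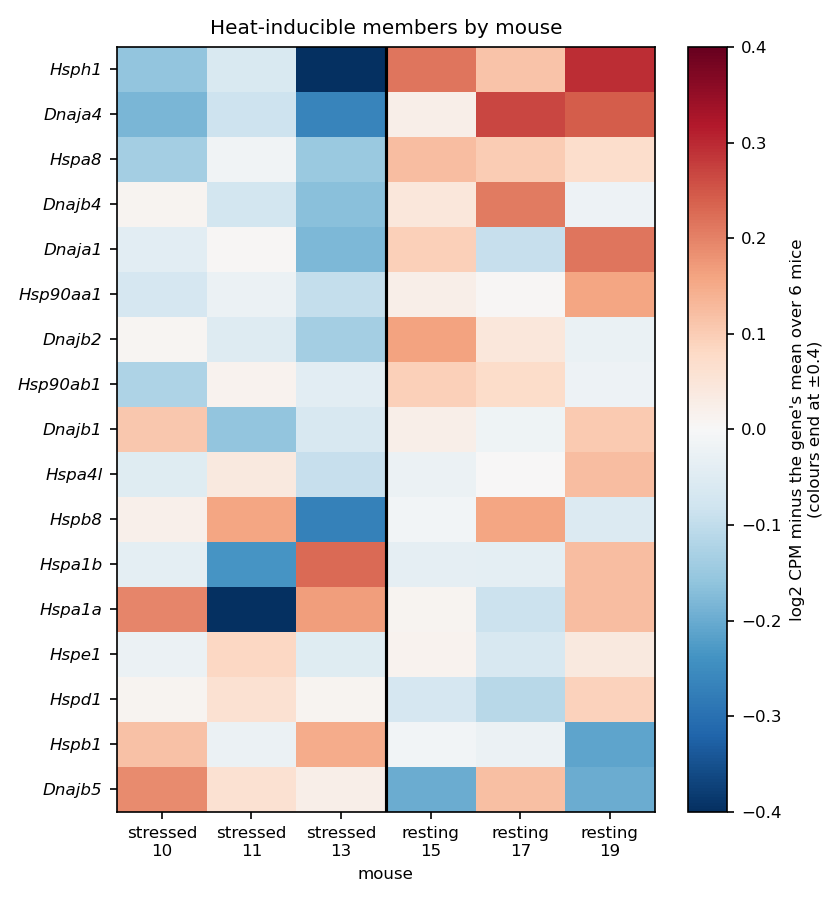
Deviation of each of the 17 classic heat-inducible members from its own mean over the 6 mice, on the log2 CPM scale, with stressed mice in the left columns and resting mice in the right; red is above and blue below the mean, colours end at ±0.4, and rows run from the lowest to the highest fold change. Hsph1, Dnaja4, Hspa8 and Hsp90aa1 lie below their mean in all stressed mice and above it in all resting mice, while Hspa1a and Hspa1b vary among mice of both groups.

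Summed over all 66 genes, chaperone RNA was at 4794, 4889 and 4728 CPM in stressed mice, against 5108, 4978 and 5069 CPM in resting mice. The groups did not overlap. Over the 61 tested members the mean difference was -248 CPM, of which Hspa8 accounted for 53.8% and Hsp90ab1 for 23.8%. Among tested members without Hspa8, the sums averaged 3893 ± 39.9 CPM in stressed mice (SD over 3 mice). They averaged 4007 ± 65.4 CPM in resting mice. Without Hsp90ab1 as well they were 3073 ± 52.8 and 3128 ± 85.02 CPM in stressed and resting mice. Stressed mouse 13 was lowest of the 6 mice for 18 of 61 members, and highest for 13.

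**Figure D5:**
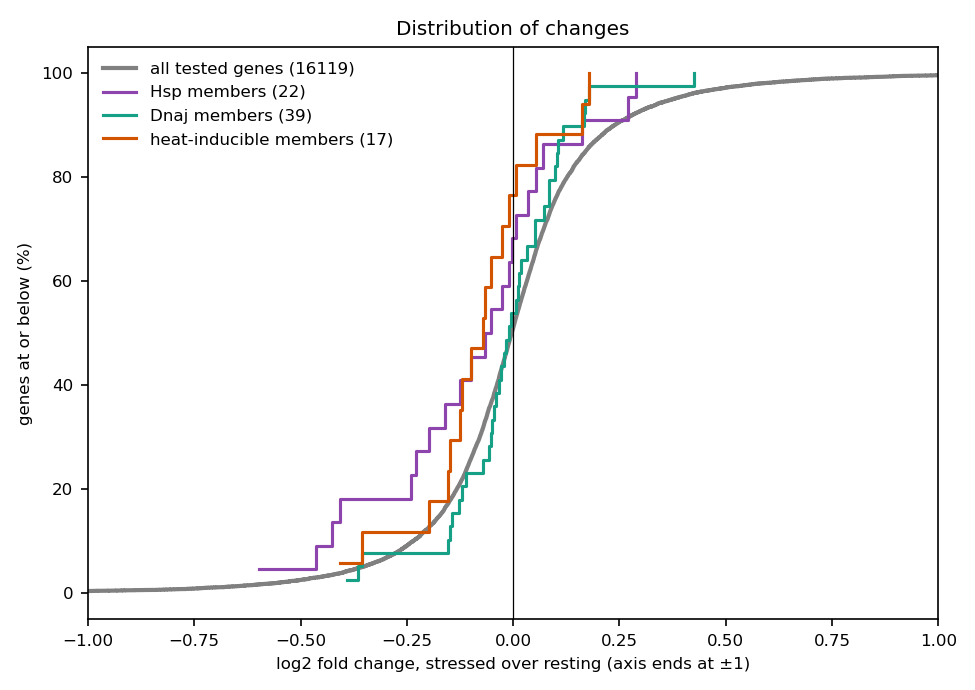
Share of genes at or below each log2 fold change of stressed over resting mice, for all 16119 tested genes (grey), the 22 Hsp members (purple), the 39 Dnaj members (green) and the 17 heat-inducible members (orange); the axis ends at ±1. The medians are -0.06 for Hsp, -0.009 for Dnaj and -0.07 for heat-inducible members, against -0.003 for all genes.

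By family, 15 of 22 tested Hsp genes were below 0 with a median of -0.06, and 21 of 39 tested Dnaj genes were below 0 with a median of -0.009. Of all tested genes, 51% were below 0. The difference between the families was not tested, and no test was made of whether the members as a list differ from other genes. The 4 of 22 Hsp genes with an unadjusted p under 0.05 and a lower level in stressed mice were Hsph1, Hspa13, Hspa8 and Hspa12b. The 2 of 39 Dnaj genes were Dnajc28 and Dnaja4, and the share over all tested genes was 3.41%.

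The genes that control the heat shock response and work with its products were counted from 5 lists of 74 genes outside the families, of which 72 were tested. Of these, 36 were below 0 and 36 above, none passed the adjusted threshold in edgeR (0.031% of all tested genes did), and at an unadjusted p under 0.05 1 was lower and 1 higher, against 3.41% and 3.52% of all tested genes. Hsf1, the factor that switches on heat shock genes, had 25.4, 25.3 and 26.0 CPM in stressed mice, against 27.8, 25.0 and 25.5 CPM in resting mice, and its log2 fold change was -0.03 with an interval of -0.21 to 0.15. Hsf1 is mostly regulated as a protein, so its RNA does not report its activity. Its relative Hsf2 was at -0.15 and the deacetylase Sirt1, which prolongs the binding of Hsf1 to DNA, at -0.12 on the log2 scale.

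Among 35 co-factors of Hsp70 and Hsp90, 19 were below 0 and 16 above. Bag5, a nucleotide exchange factor of Hsp70, had 18.7, 17.1 and 15.3 CPM in stressed mice, against 18.8, 19.2 and 21.2 CPM in resting mice, with groups that did not overlap and an unadjusted p of 0.0733. Trap1, the mitochondrial Hsp90, had 77.6, 79.8 and 81.8 CPM in stressed mice, against 71.1, 71.3 and 76.7 CPM in resting mice, also without overlap and with an unadjusted p of 0.0831. In the 14 genes of the cytosolic chaperonin CCT and prefoldin, 4 were below 0 and 10 above, the 2 with the smallest p being Pfdn1 at 0.16 and Pfdn5 at 0.09.

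Of 20 genes outside the families that are known to respond to heat, 11 were below 0 and 9 above. Fkbp4, Chordc1, Ahsa1, Stip1, Cacybp and Bag3 are in this list and also among the 35 co-factors, so the counts share genes. Slc5a3, a myo-inositol transporter that also responds to osmotic stress, had 24.4, 25.4 and 21.996 CPM in stressed mice, against 32.3, 28.8 and 29.7 CPM in resting mice. All stressed mice were below all resting mice, and its log2 fold change was -0.34 ± 0.09 (SE; unadjusted p = 0.00341, edgeR adjusted p = 0.461). Ddit4, an inhibitor of mTOR signalling that glucocorticoids also induce, was at 0.23 with overlapping groups. The cold-inducible RNA-binding protein Cirbp, whose RNA falls when body temperature rises, had 59.2, 55.5 and 61.3 CPM in stressed mice, against 49.6, 50.7 and 44.1 CPM in resting mice. Its groups did not overlap, and its log2 fold change was 0.29 ± 0.08 (SE; unadjusted p = 0.00379, edgeR adjusted p = 0.462). Rbm3, the other cold-inducible gene, had 157, 175 and 163 CPM in stressed mice, against 163, 162 and 182 CPM in resting mice; these overlapped, at -0.03 on the log2 scale.

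Markers of other tissues and cells in the samples were compared because they could move with these genes. The 15 colon epithelium markers summed to 34422 to 36133 CPM in stressed mice, against 29744 to 33111 CPM in resting mice, and 11 of 15 were above 0 in log2 fold change. Without Car1, at 12402 CPM on average in stressed mice and 9049 CPM in resting mice, they summed to 21801 to 24261 CPM in stressed mice, against 22303 to 22902 CPM in resting mice, which overlapped. Aqp8 and Slc26a3 of this list were lower in stressed mice, at -1.06 and -0.25 on the log2 scale (unadjusted p = 0.00387 and 0.034, edgeR adjusted p = 0.462 and 0.667). The groups of Slc26a3 overlapped. The 5 haemoglobin and blood genes summed to 30.8 to 37.1 CPM in stressed mice, against 7.91 to 23.8 CPM in resting mice. All 4 tested were higher, with a median log2 fold change of 1.48. Each of the 4 had all stressed mice above all resting mice and an unadjusted p under 0.05 in edgeR. The sums of the 10 adipocyte markers (507 to 698 CPM in stressed mice, against 507 to 663 CPM in resting mice, 9 of 10 above 0) overlapped, while 3 of the 10, Plin1, Retn and Lpl, had all stressed mice above all resting mice (unadjusted p = 0.000614, 0.00174 and 0.00522). So did those of the 10 B and plasma cell markers (1013 to 1709 CPM in stressed mice, against 1056 to 1498 CPM in resting mice, 4 of 10 above 0) and of the 12 T cell and macrophage markers (167 to 265 CPM in stressed mice, against 209 to 241 CPM in resting mice, 3 of 12 above 0 and 2 with all stressed mice below all resting mice). Over all tested genes, 6.13% had all stressed mice above all resting mice and 6.58% had all of them below. None of these markers passed the adjusted threshold in edgeR, where 0.031% of all tested genes did. The smallest adjusted p among them was 0.185, for Hbb-bt. The part of these markers in the values of the chaperone genes was not tested.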

How the data were processed

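The authors deposited raw read counts per Ensembl gene, as whole numbers, 1 column per mouse. Per the submitters' processing notes, reads were handled with fastp and HISAT2 on mm10. Per the labels' protocols, RNA with a high integrity number was used for stranded poly(A) libraries. The sources used here do not give the counter, annotation or strand setting, so overlapping, antisense and near-identical genes are uncertain.

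Groups came from the treatment labels. Each library is a separate mouse, and no pair of libraries within a group looked like copies (chi-square per gene of 7.76 to 18.3). Symbols, exon lengths and coordinates came from GENCODE M21. Genes were kept by filterByExpr (minimum count 10, minimum total 15). Libraries were scaled by TMM and tested by the quasi-likelihood F test of edgeR 4.0.16 (R 4.3.3), with Benjamini-Hochberg adjustment over all 16119 tested genes. Intervals are 95%. DESeq2 1.42.0 and limma 3.58.1 were alternatives. TPM are counts per exon length, so a gene with long annotated exons, such as Dnaja1, reads low.

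Named members are the 10 with the smallest p in each direction, the 17 classic heat-inducible genes and the most abundant gene of each role; the other members are named to account for all. Named pathway genes are the 2 with the smallest p in each list and 4 fixed genes (Hsf1, Hsf2, Cirbp and Rbm3). Marker sums without Car1 or Acta1 and the heat-inducible counts without Hspa8 and Hsp90ab1 were added after seeing the data. Members and lists were chosen with earlier results of these data known.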

Additional observations from a re-analysis of the deposited data

How the results depend on the processing

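Intervals and p-values cover the spread between these 3 mice per group alone, and the low-count members Dnajb7, Dnajb3 and Hspa1l have the widest intervals. No paired analysis was possible because the groups share no replicate numbers. The count of all genes called was 5; it was 151 with no filter on low counts, 56 with the DESeq2 test, 3 with limma-voom, 10 with a smooth muscle score as covariate, 3 with a Hoxa score as covariate and between 1 (without stressed mouse 10 or resting mouse 15) and 14 (without stressed mouse 11) when each mouse was left out in turn. No member was called under any of these settings except Hsph1 with no filter (1 member). The count of members lower at an unadjusted p under 0.05, 6, was 2 of 61 with the Hoxa covariate, against 2.38% of all tested genes. With a mouse left out it was between 2 and 8. It was 2 without stressed mouse 10 (against 2.97% of all tested genes), 3 without stressed mouse 13 (3.4%) and 8 without stressed mouse 11 (3.51%). The count of members higher, 1, was 0 with library totals as the scale (against 2.5% of all tested genes) and 0 with the DESeq2 test (2.85%). It was 0 to 1 with a mouse left out, against 2.59% to 4.15% of all tested genes. Members with all stressed mice below all resting mice numbered 9 to 17 (17 without resting mouse 19) when a mouse was left out, against 9 with all mice. Those with all stressed mice above numbered 4 to 8 (8 without stressed mouse 11), against 3 with all mice. Such counts grow by construction with fewer mice, and the shares of all tested genes at these settings are not given here. The median member log2 fold change of -0.022 was -0.053 with library totals, where that of all genes was -0.035, and -0.039 to -0.011 with a mouse left out. Of 34 named members, 24 kept the sign of their fold change under all 15 alternatives and 10 changed it in at least 1, for which the cause was not tested.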
